A study of Mus musculus with 8 samples.

Results

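The genes described here are the protein-coding genes of mouse chromosomes 7, 16 and 18 (mm10) whose mean over 8 libraries was at least 4 CPM (read counts scaled to the total of their library). Of 2463 protein-coding genes of these chromosomes in the table, 1332 met this threshold and 1131 did not. Chromosome 7 gave 751 of them, chromosome 16 gave 326 and chromosome 18 gave 255, among 10388 such genes of all chromosomes and 29079 genes in all. The 3 chromosomes were picked because their genes had already been seen to differ between the 2 cell lines of the study, so the ratio between the lines is given as a description, and counts of called genes for it are printed without being read as evidence. The values at the threshold were close together: Zfp607a (4.02 CPM), Sept1 (4.03) and Itpkc (4.03) lay just inside, and E430018J23Rik (3.99), Neu3 (3.98) and Sptbn4 (3.90) just outside.

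MC38 is a transplantable colon adenocarcinoma line of C57BL/6 mice. The control line carries a CRISPR control (WT-MC38, CRISPR-Ctrl; called WT) and the other was edited with 1 guide RNA against Piezo2 (Piezo2-gRNA1; called KO), the gene of a mechanically gated cation channel. Each line was left without irradiation (nonIR) or given 30 Gy of X-rays in 1 fraction (IR), with RNA taken 60 hours later and 2 libraries in each of the 4 groups. The series title links radioresistance, and the state of CD8 T cells, to Piezo2 in tumour cells. There is 1 line of each genotype, and no source used here says whether the KO line is a clone or whether paired libraries were grown apart. All p-values therefore measure library-to-library spread, possibly technical, and editing of Piezo2 cannot be told apart from any other difference between these 2 lines.

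Depth was 10971004 to 19887180 counts per library. Of the epithelial markers, Cdh1 (E-cadherin) stood at 38.1 to 79.3 CPM, while Krt18 reached 0.148, Vil1 0.519, Krt8 1.33 and Krt19 1.63 CPM, low values for cells labelled epithelial. Vim, the mesenchymal filament gene, stood at 2700 to 4340 CPM. Of 8 leukocyte markers, Cd14 (5.45 to 17.6 CPM) and Cd74 (up to 15.6) were the ones above 1.48 CPM in any library. The Piezo2 check was uninformative: its reads numbered 0 and 0 in nonIR WT, 3 and 9 in IR WT, 0 and 1 in nonIR KO, and 7 and 12 in IR KO.

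As background, a cell that carries an extra copy of a chromosome, or has lost one, usually makes more or less mRNA of most genes on it, roughly in step with the number of copies. Cultured tumour lines often gain and lose whole chromosomes or arms, and sublines of the same line can differ in them. A change of this kind shows in expression data as a modest ratio of like size and sign over long runs of neighbouring genes, with sharp borders, whereas regulation of single genes scatters along the chromosome. DNA was not measured in these samples, and whether the stretches described below differ in DNA copy number was not tested.

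Sequences of 2 sets of promoters are given as landmarks. RefSeq promoter windows (GRCm38.p6, 250 bases before to 50 after a start site) were matched by symbol to 922 of the 1332 genes. These were 45 before and 605 after the chromosome 7 border and 272 on chromosome 16. Genes of the remaining chromosome had no window, so the shares of matched genes do not cover it. The first set marks the border on chromosome 7 described below: Lig1 (chr7:13276925-13277224, plus strand) and Selenow (chr7:15922322-15922621, minus strand) lie at the end of the lower stretch, and Ehd2 (chr7:15967486-15967785, minus strand) is the second gene of the higher stretch. Capitals mark the TATA box letters TATAAA, the CCAAT box (its name gives its letters) and the GC box letters GGGCGG on either strand.
Lig1: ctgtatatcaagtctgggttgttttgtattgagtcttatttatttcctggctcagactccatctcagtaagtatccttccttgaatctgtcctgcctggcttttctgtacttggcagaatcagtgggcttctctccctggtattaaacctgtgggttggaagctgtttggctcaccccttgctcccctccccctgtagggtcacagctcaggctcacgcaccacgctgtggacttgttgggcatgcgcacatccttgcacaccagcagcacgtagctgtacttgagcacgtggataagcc
Selenow: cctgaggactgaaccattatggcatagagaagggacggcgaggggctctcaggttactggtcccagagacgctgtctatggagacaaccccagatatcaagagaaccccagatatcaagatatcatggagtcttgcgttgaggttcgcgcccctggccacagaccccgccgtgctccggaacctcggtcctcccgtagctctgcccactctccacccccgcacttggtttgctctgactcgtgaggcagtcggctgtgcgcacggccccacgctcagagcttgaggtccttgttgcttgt
Ehd2: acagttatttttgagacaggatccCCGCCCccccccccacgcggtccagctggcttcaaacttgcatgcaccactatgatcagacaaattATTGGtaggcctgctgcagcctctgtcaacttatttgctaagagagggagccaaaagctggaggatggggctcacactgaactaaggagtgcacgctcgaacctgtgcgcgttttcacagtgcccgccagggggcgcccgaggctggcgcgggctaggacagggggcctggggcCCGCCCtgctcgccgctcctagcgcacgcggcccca
These letters were not found in the Lig1 and Selenow windows, and the Ehd2 window held 1 CCAAT and 2 GGGCGG. Among all 32851 windows of the RefSeq table, 13.6% held TATAAA, 37.4% CCAAT and 35.7% GGGCGG. Those windows were not selected for expression or gene type and number more than 1 for some genes, so they are no matched background for the 922. Their median GC content was 52.7%, and that of the 922 was 61.0%. No share was taken for expressed genes of other chromosomes, so the shares below are not read as particular to these chromosomes. Among genes after the chromosome 7 border the shares were 5.62%, 41.0% and 67.1%, among those before it 8.89%, 37.8% and 60.0%, and on chromosome 16 they were 6.62%, 38.2% and 69.1%.

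The second set belongs to interferon-response genes that depart from their chromosome after irradiation. Ifitm3 (chr7:141010695-141010994, minus strand), Trim30a (chr7:104465144-104465443, minus strand), Dtx3l (chr16:35938978-35939277, minus strand) and Socs1 (chr16:10785487-10785786, minus strand) are shown in capitals where GAAA is followed, after any 2 bases, by another GAAA on either strand, adjacent half-sites of the kind that interferon regulatory factors bind.
Ifitm3: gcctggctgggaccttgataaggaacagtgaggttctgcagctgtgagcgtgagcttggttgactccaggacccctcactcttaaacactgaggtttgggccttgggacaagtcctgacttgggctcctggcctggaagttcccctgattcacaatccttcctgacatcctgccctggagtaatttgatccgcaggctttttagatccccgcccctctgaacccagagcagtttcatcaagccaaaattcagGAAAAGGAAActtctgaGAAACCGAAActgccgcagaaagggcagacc
Trim30a: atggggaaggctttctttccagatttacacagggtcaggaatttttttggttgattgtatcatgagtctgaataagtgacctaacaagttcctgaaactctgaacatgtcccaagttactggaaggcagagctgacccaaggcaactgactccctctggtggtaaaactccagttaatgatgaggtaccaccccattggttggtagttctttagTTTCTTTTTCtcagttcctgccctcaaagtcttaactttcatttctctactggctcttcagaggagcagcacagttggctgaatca
Dtx3l: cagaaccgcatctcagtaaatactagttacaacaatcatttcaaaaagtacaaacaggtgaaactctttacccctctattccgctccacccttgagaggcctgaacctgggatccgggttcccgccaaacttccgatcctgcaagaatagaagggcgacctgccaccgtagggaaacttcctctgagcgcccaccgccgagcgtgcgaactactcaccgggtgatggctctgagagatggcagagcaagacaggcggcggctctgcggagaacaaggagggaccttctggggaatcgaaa
Socs1: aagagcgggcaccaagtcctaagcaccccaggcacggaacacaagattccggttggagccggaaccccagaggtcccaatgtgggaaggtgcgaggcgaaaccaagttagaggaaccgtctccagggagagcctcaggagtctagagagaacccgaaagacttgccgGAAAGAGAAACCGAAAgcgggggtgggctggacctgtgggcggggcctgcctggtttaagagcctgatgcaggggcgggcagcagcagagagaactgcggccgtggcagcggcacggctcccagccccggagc
The Ifitm3 window held 2 matches, Trim30a 1, Socs1 2 that overlap, and Dtx3l 0. Of the 29 interferon-response genes on the 3 chromosomes, 20 had a window and 9 of these (45.0%) held a match, against 3.44% of all windows and 2.82% of the 922 matched ones.

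Chromosomes 7 and 18 were higher and chromosome 16 was lower in KO than in WT. Throughout, the ratio is log2((KO CPM + 0.5) / (WT CPM + 0.5)) of group means, which understates the change of low genes. On chromosome 7 its median was 0.37 without irradiation (0.37 and 0.38 in the 2 replicate-matched pairs), a 1.3-fold level, and 0.36 after it. On chromosome 18 the median was 0.43 (0.44 and 0.42) and 0.41, and on chromosome 16 it was -0.33 (-0.31 and -0.34) and -0.37, a level of 0.797 and 0.774 of WT. The 9045 genes of the other chromosomes (1 to 6, 8 to 15, 17, 19 and X) had medians of -0.03 in both conditions. Chromosome 3 was next in size of shift, at -0.13 and -0.17, and the medians of the others lay between -0.12 and 0.10. In the plot of chromosome medians the 3 chromosomes stand apart at both ends in both conditions.

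**Figure D1:**
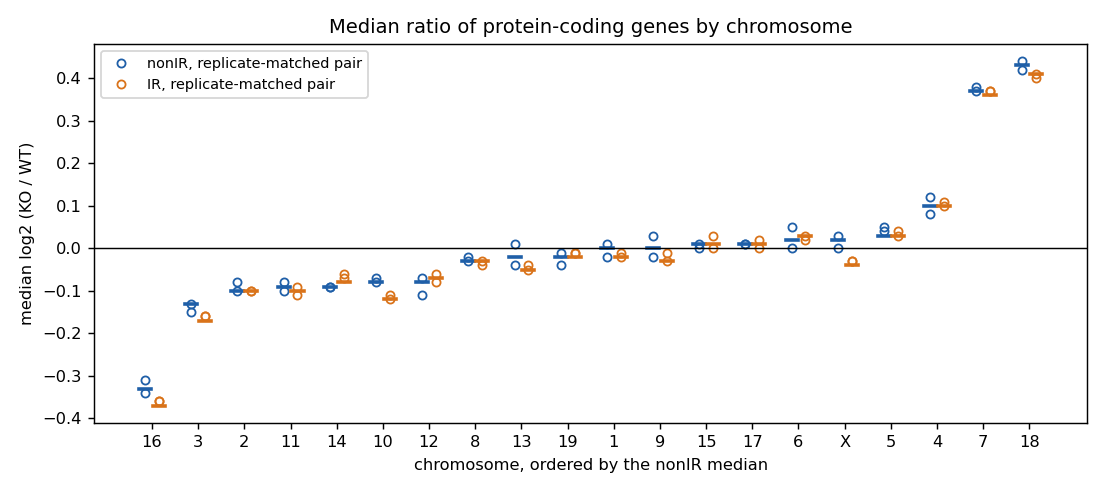
Median log2 ratio of KO over WT for the protein-coding genes of each chromosome, without irradiation (blue) and after it (orange). Bars are medians from group means and open circles the 2 replicate-matched pairs; chromosome 16 lies at -0.33 and -0.37, and chromosomes 7 and 18 between 0.36 and 0.43, while the others lie between -0.17 and 0.10.

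The shift was shared by most genes and did not come from a tail. On chromosome 7, 86.4% of genes had a ratio above 0 without irradiation and 84.7% after it, and on chromosome 18 the shares were 87.8% and 85.5%. On chromosome 16, 85.6% and 85.0% lay below 0, compared with 54.3% and 54.8% on the other chromosomes. The spread of the ratios was like that elsewhere, with an interquartile range without irradiation of 0.41, 0.37 and 0.37 on chromosomes 7, 16 and 18 and of 0.39 on the others. As scale, ratios of 4 to 3 and of 3 to 2 are 0.42 and 0.58 in log2, and a ratio of 3 to 4 is -0.42.

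Along chromosome 7 the profile had a single step, close to the centromeric end. An optimal partition of the genes into stretches of constant level, at least 40 genes long, placed the border without irradiation between Selenow and Nop53. The 51 genes before it, from Myadm to Selenow (chr7:3289080-15922402), had a median of -0.24, which is 0.849 of the WT level. The 700 genes after it, from Nop53 to Mrgprf (chr7:15936183-145309557), had a median of 0.39, or 1.31-fold, so the step was 0.63. After irradiation the border fell 1 gene earlier, between Lig1 and Selenow, with medians of -0.25 and 0.39 and a step of 0.64. Each replicate-matched pair gave the border of its condition, with steps of 0.67 and 0.59 without irradiation and 0.63 and 0.63 after it. When every stretch had to hold 80 genes the border was forced to gene 80, between Dmwd and Dmpk, and the step became 0.47 and 0.46.

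Selenow, which encodes a small selenoprotein of redox metabolism, decided the 1-gene difference. Its CPM was 53.4 and 60.2 in nonIR WT, 51.7 and 55.7 in IR WT, 46.8 and 54.7 in nonIR KO, and 91.2 and 97.8 in IR KO. The IR KO libraries were thus above all 6 others, and the ratio went from -0.16 to 0.81. Its irradiation effect differed between the lines by 1.00 ± 0.15 (log2 ± SE, edgeR adjusted p = 0.0193, 2 libraries a group; lost in 7 of 8 leave-one-out fits, largest adjusted p 0.0883). The adjusted p of this difference was 1.08e-11 in edgeR with the replicate block and 0.000118 in DESeq2. Lig1, the DNA ligase of the lagging strand, had 170, 182, 167 and 171 CPM in the 4 WT libraries and 128, 137, 109 and 113 in the 4 KO libraries, with ratios of -0.41 and -0.60 and no overlap. Nop53, a ribosome biogenesis factor, had 80.8, 84.8, 72.8 and 76.5 CPM in WT and 95.8, 117, 100 and 106 in KO, with ratios of 0.36 and 0.46 and no overlap. Lig1 ends at position 13311433 and Selenow starts at 15917208, and among the 10 protein-coding genes of the table in these 2.61 Mb the highest was Pla2g4c, with a mean of 3.05 CPM.

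The 10 genes on each side are a description only, since the border was placed on these same ratios. Over the whole stretches without irradiation, 76.5% of genes before the border were below 0 and 91.0% of those after it above 0. Before the border the ratios ran from -0.85 (Zswim9) to 0.79 (Chmp2a, a subunit of the ESCRT-III membrane-remodelling complex) without irradiation, with 8 of 10 below 0. Chmp2a and its neighbour Ube2m, the NEDD8-conjugating enzyme, at 0.30 and 0.25, were exceptions inside the lower stretch in both conditions. After the border the ratios ran from -0.04 (Kptn) to 0.60 (Bicra) without irradiation and from 0.11 (Bicra) to 0.62 (Inafm1) after it. They were above 0 for 9 and 10 of the 10 genes.

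Chromosome 18 also began with a short stretch that differed from the rest. With stretches of at least 40 genes the border fell at exactly 40 genes, between Mapre2 and Zfp397, with a step of 0.43 without irradiation and 0.41 after it, so that minimum set its place. With at least 20 genes it fell between Cdh2 and B4galt6 in both conditions and in all 4 replicate-matched pairs, and the stretches below use this border. The 35 genes before it, from Crem to Cdh2 (chr18:3266048-16809246), had medians of 0.02 and 0.00. The 220 genes after it, from B4galt6 to Tmx3 (chr18:20684599-90543267), had medians of 0.46 and 0.45, or 1.38-fold and 1.36-fold. The step was 0.45 in both conditions, and 0.45, 0.51, 0.44 and 0.47 in the 4 pairs.

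Cdh2, which encodes N-cadherin, is the last gene before the border. It had 61.8, 56.4, 68.1 and 62.3 CPM in the WT libraries and 42.3, 42.3, 50.1 and 56.3 in the KO libraries, with ratios of -0.48 and -0.29. B4galt6, the lactosylceramide synthase, is the first after it, with 35.1, 38.5, 26.1 and 24.8 CPM in WT and 48.0, 52.6, 36.1 and 34.4 in KO. Its ratios were 0.45 and 0.46, and within each condition the lines did not overlap for either gene. The 3.88 Mb between these genes hold 9 protein-coding genes of the table, of which the highest, Dsc3 of the desmosomal cadherins, had a mean of 0.678 CPM, so the border cannot be placed more closely. All of the first 10 genes after the border had a ratio above 0 in both conditions, from 0.21 to 0.79 without irradiation, against 2 and 4 of the last 10 before it. This too is a description only, since the border was placed on these ratios. Over the whole stretches, 93.6% of genes after it and 51.4% before it were above 0 without irradiation.

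**Figure D2:**
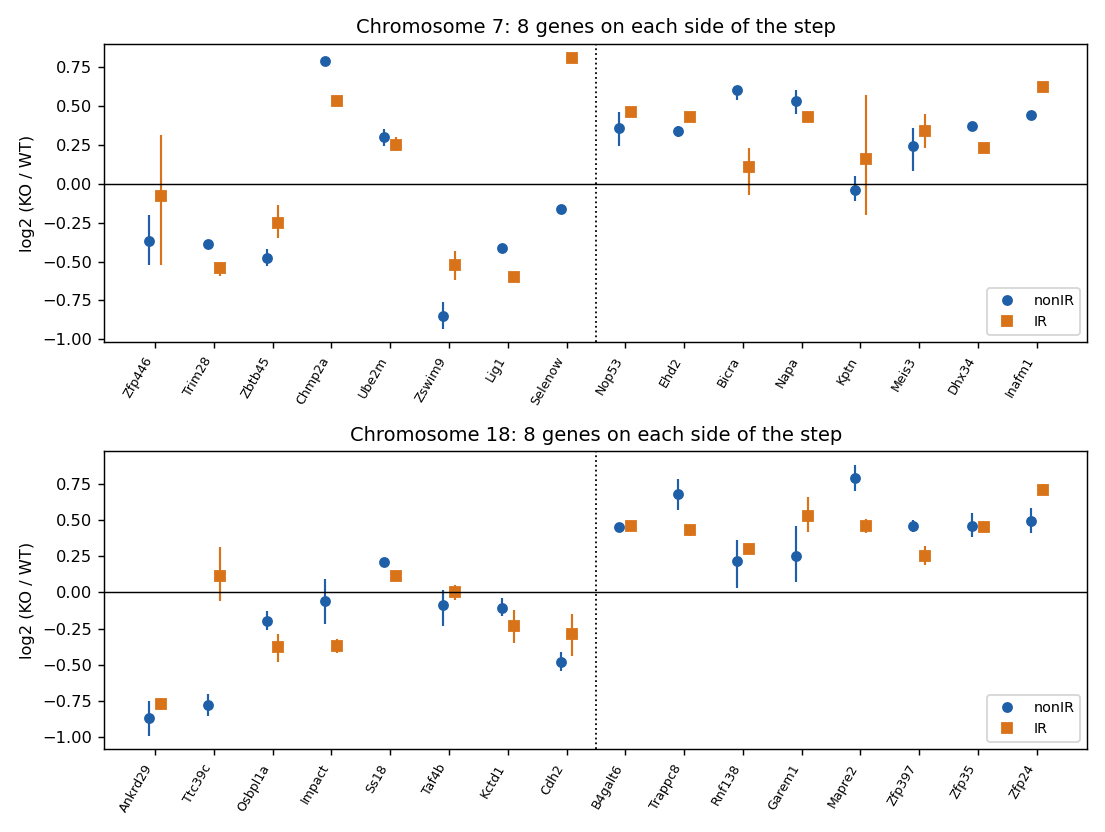
Log2 ratio of KO over WT for the 8 genes nearest to the border on each side, for chromosome 7 (upper) and chromosome 18 (lower), in order of position, without irradiation (circles) and after it (squares). Vertical lines span the 2 replicate-matched pairs and the dotted line is the border; to its right all but Kptn without irradiation (-0.04) lie above 0.

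Chromosome 16 showed no border. The partition returned 1 stretch of 326 genes, from Zfp263 to Zbtb21 (chr16:3744093-97962622), in both conditions, in every replicate-matched pair, with minimum lengths of 20, 40 and 80 genes and with a penalty factor of 6 in place of 3.

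Consecutive windows of 40 genes gave the same picture in finer grain. On chromosome 7 the first window, Myadm to Zfp128, had medians of -0.19 and -0.21, and the other 18 windows lay between 0.29 and 0.50 without irradiation and between 0.28 and 0.54 after it. The second of these, Zscan22 to Dmwd, contains the border and had 0.29 in both conditions. On chromosome 16 all 8 windows were below 0, from -0.42 to -0.25 and from -0.44 to -0.25. On chromosome 18 the first window had 0.04 in both conditions and the other 5 had 0.43 to 0.54 and 0.41 to 0.57. Of the 33 windows, 30 lay beyond 0.25 in either direction in each condition (90.9%), against 2.64% and 4.41% of the 227 windows of the other chromosomes. The medians of the 2 conditions differed by 0.21 at most (window 10 of chromosome 7, Lins1 to Fes, 0.33 and 0.54), and the 2 replicate-matched pairs of a window by 0.20 at most.

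**Figure D3:**
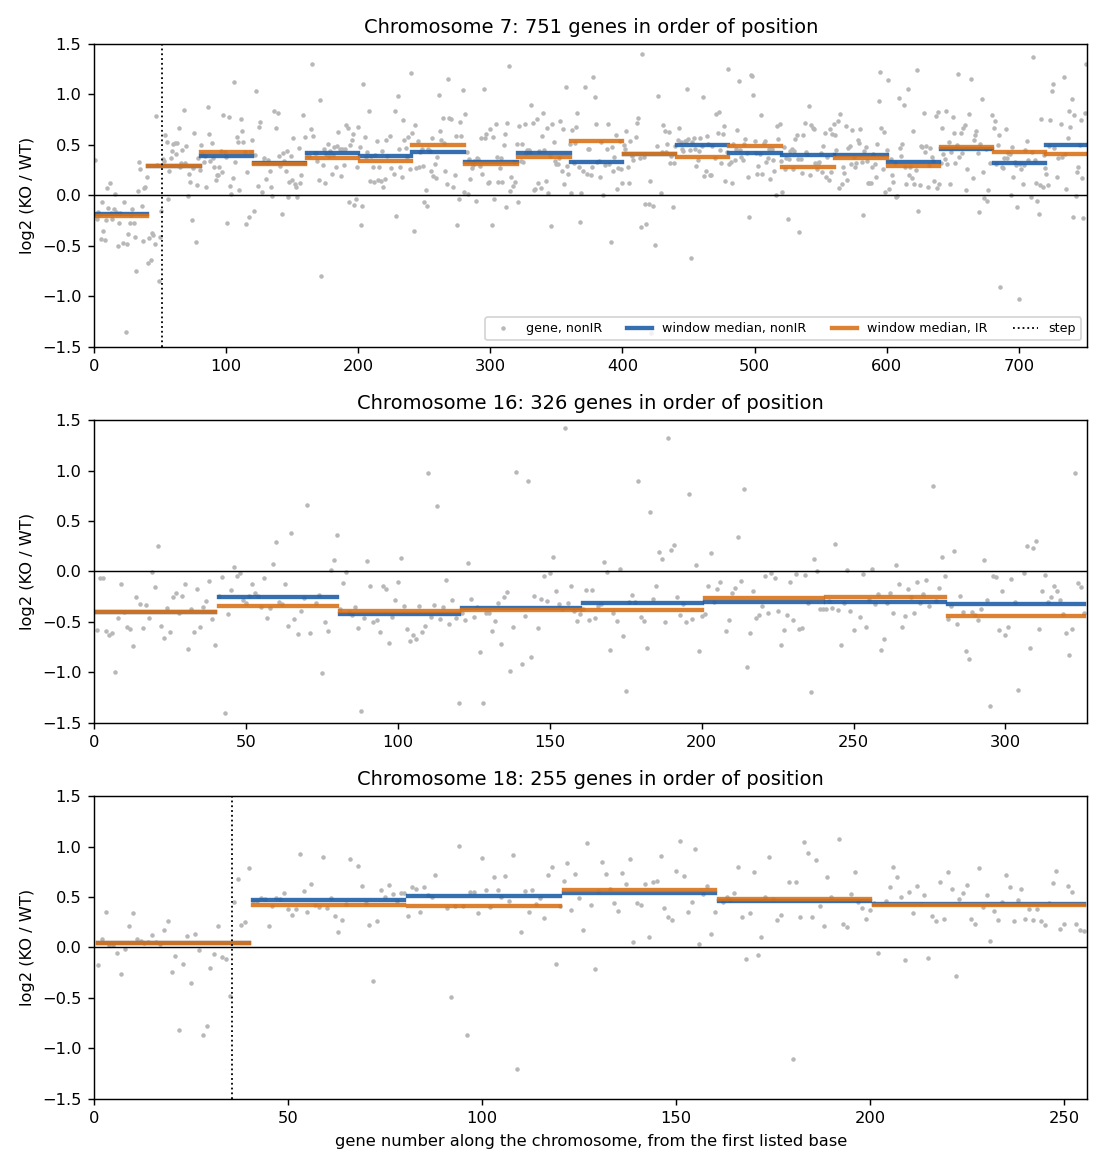
Log2 ratio of KO over WT by gene number along chromosomes 7, 16 and 18; grey points are genes without irradiation, and horizontal bars are medians of 40-gene windows without irradiation (blue) and after it (orange). The dotted lines mark the borders after gene 51 of chromosome 7 and gene 35 of chromosome 18, and 18, 5 and 6 genes beyond 1.5 are not drawn.

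Stretches that stand apart were also present on other chromosomes, so steps as such are not particular to these 3. On chromosome 6 the partition set off a stretch ending at Tgoln1, with medians of 0.45 and 0.53, and on chromosome 14 one of 40 genes from Diaph3 to Itgbl1, with -0.47 and -0.56. The steps into and out of the chromosome 6 stretch were 0.46 and -0.48 without irradiation and 0.49 and -0.58 after it. The step into the chromosome 14 stretch was -0.44 and -0.52. Long stretches with smaller steps were set off too. The last 382 genes of chromosome 4 (377 after irradiation) had medians of 0.22 and 0.24, steps of 0.30 and 0.32 from the genes before them, and chromosome 9 divided near its middle with steps of 0.25 and 0.24. With the same minimum of 40 genes the steps were 0.63 and 0.64 on chromosome 7 and 0.43 and 0.41 on chromosome 18, and chromosome 16 had none. With that minimum the steps of chromosomes 6 and 14 were larger in size than those of chromosome 18. The minimum had set the place of the chromosome 18 border, and the chromosome 14 stretch also held exactly 40 genes. At its 20-gene border chromosome 18 had steps of 0.45 in both conditions, larger in size than the -0.44 of chromosome 14 without irradiation.

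The library values put the WT and KO libraries on opposite sides of the mean. For each library, the median over genes of the log2 deviation from the gene's mean over 8 libraries was taken. In the 700 genes after the border of chromosome 7 it was -0.195, -0.149, -0.249 and -0.190 in WT and 0.202, 0.25, 0.144 and 0.215 in KO. Over the 220 genes of chromosome 18 it lay between -0.260 and -0.206 in WT and between 0.164 and 0.275 in KO, and on chromosome 16 between 0.151 and 0.189 in WT and between -0.236 and -0.141 in KO. The 2 lines did not overlap in any of these stretches, nor in the 51 genes at the start of chromosome 7 (0.050 to 0.150 in WT, -0.211 to -0.094 in KO). In the 35 genes at the start of chromosome 18 they overlapped, at 0.019 to 0.074 and -0.109 to 0.026, and over the other chromosomes all libraries lay within -0.023 and 0.023.

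**Figure D4:**
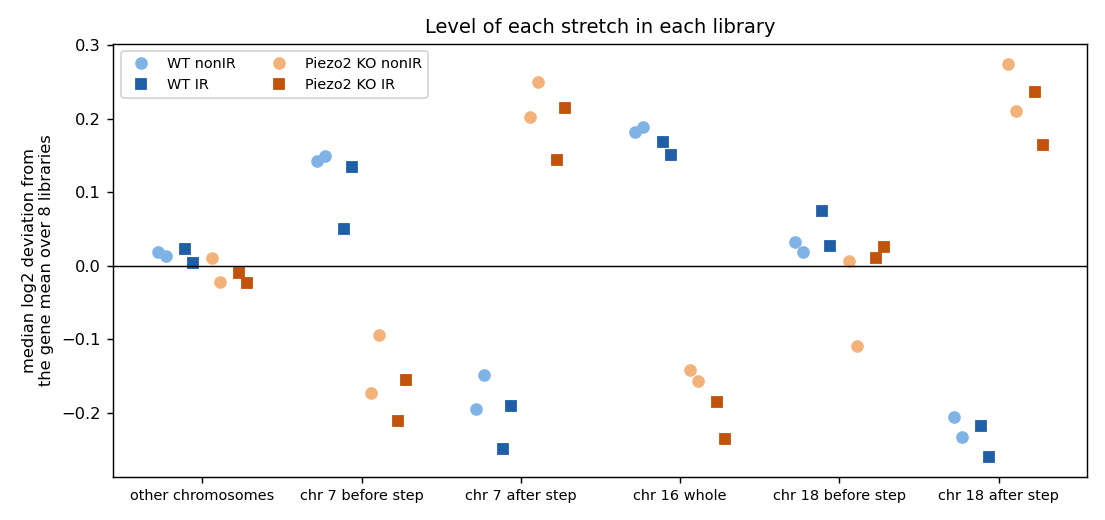
Median log2 deviation from the gene mean over 8 libraries, for each library and each stretch; blue is WT, orange KO, circles nonIR and squares IR. WT and KO separate in every stretch but the other chromosomes and the first 35 genes of chromosome 18.

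These shifts moved the share of all counts that fell to a stretch. The 700 genes of chromosome 7 took 4.06 to 4.35% of counts in WT and 5.31 to 5.74% in KO, and the 220 genes of chromosome 18 took 1.25 to 1.35% and 1.73 to 1.87%. Chromosome 16 took 2.80 to 2.95% in WT and 2.22 to 2.48% in KO.

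The shift was present at every level of expression. Genes were split into low, middle and high classes at 27.1 and 73.3 CPM, bounds that divide all such genes of the genome into equal classes. The classes had nonIR medians of 0.39, 0.41 and 0.39 after the border of chromosome 7, of -0.38, -0.31 and -0.31 on chromosome 16, and of 0.41, 0.53 and 0.44 after the border of chromosome 18. After irradiation the medians were 0.43, 0.37 and 0.34 on chromosome 7, smaller at higher levels, -0.41, -0.36 and -0.37 on chromosome 16, and 0.40, 0.50 and 0.40 on chromosome 18. The other chromosomes had -0.01, -0.03 and -0.07. Split the same way by exon length, short to long, the genes had nonIR medians of 0.42, 0.36 and 0.42, of -0.37, -0.34 and -0.30, and of 0.47, 0.45 and 0.48 in the same order.

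Counts of called genes are given as a further description of the contrast that chose the chromosomes. With edgeR's quasi-likelihood test at an adjusted p under 0.05, 19.9% of 14923 tested genes were called for KO against WT without irradiation, 10.4% higher and 9.49% lower. Of the 751 genes on chromosome 7, 298 were called higher and 17 lower, of the 255 on chromosome 18, 133 and 10, and of the 326 on chromosome 16, 14 and 133. After irradiation 24.6% of all genes were called (13.3% higher, 11.4% lower), with 326 higher and 21 lower on chromosome 7, 131 and 11 on chromosome 18, and 17 and 140 on chromosome 16. Since the chromosomes were picked on this contrast, these counts are no evidence of a shift. With the replicate number as a block, 1004 and 1043 of the 1332 genes were called, in place of 605 and 646, and the shares over all genes were 44.9% and 50.4%. Without one of the libraries in the contrast the counts were 312 to 371 and 403 to 409.

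Piezo2, at chr18:63010213-63387183, lies well inside the higher stretch, and the level did not change there. The 146 genes between the border and Piezo2 had medians of 0.49 and 0.46, and the 74 genes after it 0.43 and 0.42. Nearest to the edited gene, the last 10 genes before it (Pdgfrb to Napg) had medians of 0.49 and 0.59, and the first 10 after it (Txnl1 to Pmaip1) 0.45 and 0.50. Napg, an adaptor of membrane fusion just upstream by position, had 40.7, 38.7, 43.5 and 39.5 CPM in WT and 66.7, 58.8, 70.5 and 65.4 in KO. Txnl1, a thioredoxin-like protein on the other side, had 140, 115, 95.8 and 75.6 CPM in WT and 173, 142, 125 and 102 in KO. Both were higher in KO in each condition.

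Irradiation gave the only contrasts that the choice of chromosomes did not use. In WT it changed 574 of the 1332 genes (235 higher, 339 lower; 43.1%), where 38.9% of all tested genes and 45.2% of the 9045 genes of the other chromosomes were called. In KO it changed 604 (243 higher, 361 lower; 45.3%), where the shares were 39.7% and 46.0%. Over all tested genes, 20.4% rose and 18.4% fell in WT, and 21.1% and 18.6% in KO. Median log2 effects were -0.09 in WT and -0.08 in KO over the 700 genes of chromosome 7, -0.08 and -0.10 on chromosome 16 and -0.09 and -0.07 over the 220 genes of chromosome 18, close to the -0.06 and -0.04 of the other chromosomes. With the replicate block 890 and 919 genes were called, where 60.5% and 60.2% of all genes were.

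The share of genes whose response to irradiation differed between the lines was near that of all genes. The interaction (the effect of irradiation in KO less that in WT) had a median of 0.00 over the 1332 genes and was called for 25 of them (17 higher, 8 lower; 1.88%), beside 1.94% of all tested genes (1.37% higher, 0.57% lower) and 2.76% of the other chromosomes. With the replicate block 262 genes were called (19.7%), where 16.7% of all genes were, and without 1 library 13 to 17. The call held in all 8 leave-one-out fits for 11 of the 25 and in none for 5. Across genes, which are not independent replicates and share libraries, the nonIR and IR ratios correlated with r = 0.69 (n = 700), 0.69 (n = 326) and 0.59 (n = 220) in the stretches of chromosomes 7, 16 and 18. Over the genes of the other chromosomes r was 0.73 (n = 9045), so this correlation is not particular to the stretches.

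The genes farthest from 0 on chromosome 7 were, by a rule that asked for 10 CPM and no overlap of the lines in either condition, Irf7, Il16, Tenm4, Trim34a and Slco3a1 at the top and Arnt2, P4ha3, Cemip, Zfp28 and Zswim9 at the bottom. Il16, the precursor of a cytokine that attracts CD4 cells, had 15.1, 18, 14.1 and 13 CPM in WT and 85.1, 98, 78.9 and 92.8 in KO. Tenm4, a teneurin adhesion protein, had 2.73 to 4.94 CPM in WT and 18.7 to 24.3 in KO, and Slco3a1, an organic anion transporter, 5.99 to 11.9 and 36.7 to 45.6. These ratios, 1.92 to 2.62, were far above the level of their neighbours and appeared in both conditions. At the other end Arnt2, a partner of bHLH-PAS factors, had 24.3, 26.9, 66.0 and 70.7 CPM in WT and 6.75, 5.83, 27.1 and 26.3 in KO, inside the higher stretch. Irradiation raised it in both lines (log2 1.36, adjusted p = 6.68e-05, and 2.06, adjusted p = 1.08e-05, edgeR). P4ha3, a collagen prolyl hydroxylase subunit, and Cemip, which acts in hyaluronan turnover, were also lower in KO, with ratios of -1.66 and -0.82 and of -1.37 and -0.51.

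On chromosome 16 the lowest were Slc5a3, Ephb3, Eva1c, Col8a1 and Ifngr2. Slc5a3, the myo-inositol transporter induced by hypertonic stress, had 334, 319, 231 and 205 CPM in WT and 126, 99.8, 77.0 and 72.7 in KO, with ratios of -1.53 and -1.54. Ephb3, an ephrin receptor, had 32.6 to 35.6 and 11.1 to 13.9 CPM, and Ifngr2, the second chain of the interferon gamma receptor, 56.3, 53.2, 92.3 and 88.9 in WT and 22.6, 20.5, 39.7 and 37.5 in KO. All were lower in KO by more than the chromosome's median. The highest were Apod, Mx1, Parp14, Rtp4 and Pla1a, which irradiation raised in both lines and which ran against the chromosome. Mx1, an antiviral GTPase, had 0.771 and 0.328 CPM in nonIR WT, 38.8 and 21.6 in IR WT, 2.10 and 1.06 in nonIR KO and 405 and 383 in IR KO. Apod, the lipocalin apolipoprotein D, had 4.28 and 2.32 CPM in IR WT and 160 and 131 in IR KO.

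On chromosome 18 the highest were Iigp1, Gm4951, Sh3tc2, Tmem173 and Aldh7a1, and the lowest Ankrd29, Hbegf, Gata6, Mcc and Cxxc5. Iigp1, an immunity-related GTPase, had 0 reads in both nonIR WT libraries, 13.1 and 6.80 CPM in IR WT, 1.46 and 0.503 in nonIR KO and 385 and 337 in IR KO. Tmem173, the gene of the DNA sensor adaptor STING, had 10.3, 12.9, 23.0 and 21.5 CPM in WT and 37.6, 35.7, 45.5 and 49.5 in KO. Sh3tc2 had 16.8 to 18.7 CPM in WT and 47.4 to 55.1 in KO, and Aldh7a1, a lysine-degrading dehydrogenase, 20.6 to 27.2 and 41.5 to 57.1. These were higher than the stretch's median in both conditions. Hbegf, an EGF receptor ligand, was an exception within the higher stretch, with 16.7, 16.6, 11 and 10.7 CPM in WT and 9.66, 8.20, 7.23 and 7.56 in KO. Gata6 and Ankrd29 lie before the border. A further exception, picked after its values were seen, was Pmaip1, the p53 target that encodes the pro-apoptotic protein Noxa, with 6.88, 4.86, 27.6 and 21.5 CPM in WT and 0.273, 0.201, 0.597 and 1.10 in KO.

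Most genes of each functional group but the ribosomal proteins had ratios on the same side of 0 as the median of their chromosome. In both conditions this held for 13 of 14 genes of glycolysis and respiration, 9 of 10 imprinted genes, 9 of 11 genes of TGF-beta and Wnt signalling, 8 of 10 of adhesion and cytoskeleton, 21 of 30 of cell cycle and DNA repair, 19 of 29 of the interferon response and 3 of 17 ribosomal protein genes. Among all genes it held for 601 of 751 on chromosome 7, 259 of 326 on chromosome 16 and 211 of 255 on chromosome 18. Counts near these shares are therefore not read as particular to a group. Lists are described by counts and medians beside those of all genes, and were drawn up with earlier results known. Of 14 genes of glycolysis and mitochondrial respiration, the 8 on chromosome 7 had medians of 0.52 and 0.37, the 4 on chromosome 16 of -0.22 and -0.26, and the 2 on chromosome 18 of 0.43 and 0.42. Atp5a1 on chromosome 18, the alpha subunit of ATP synthase, had 651, 614, 408 and 372 CPM in WT and 902, 823, 537 and 507 in KO. Atp5o on chromosome 16, a stalk subunit of the same enzyme, had 100, 115, 106 and 126 and 79.1, 95.6, 82.0 and 93.5. Subunits of 1 complex thus differed between the lines in opposite directions. Ndufa3, which lies before the border of chromosome 7, was the 1 of its 8 that was below 0, at -0.24 and -0.27, with overlapping lines. Irradiation lowered 5 of the 14 in WT (18.4% of all tested genes) and 4 in KO (18.6% of all), among them Ldha, lactate dehydrogenase A (log2 -0.90, adjusted p = 0.00079, and -1.07, adjusted p = 0.000328, edgeR).

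Of 7 genes listed for TGF-beta and Wnt signalling on chromosome 18, all after the border, 6 had ratios of 0.48 to 0.62 without irradiation and 0.27 to 0.86 after it. They were Smad2 and Smad4, transducers of TGF-beta signals, and Apc and Csnk1a1, parts of the beta-catenin destruction complex. The others were Tcf4, which encodes a bHLH E protein and not the Wnt effector of that name, and the alpha-catenin gene Ctnna1. The counts for this list include both. Smad4 had 89.6, 97.8, 101 and 107 CPM in WT and 139, 147, 137 and 157 in KO, and Apc 92.5, 110, 81.8 and 92.1 in WT and 146, 163, 110 and 128 in KO. Smad7, the inhibitory member, had ratios of -0.28 and -0.16. On chromosome 16 Gsk3b and Dvl3 had ratios of -0.17 and -0.35 and of -0.09 and -0.30. The 2 on chromosome 7, the ligand gene Tgfb1 (-0.19 and 0.01) and Ltbp4, which binds latent TGF-beta (0.11 and 0.27), lay below their stretch, with overlapping lines.

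Cell-cycle and DNA-repair genes differed in their medians by chromosome. On chromosome 7 the 17 genes had medians of 0.27 and 0.23, with Mki67, a marker of cycling cells, at 0.46 and 0.36 and Plk1, a mitotic kinase, at 0.38 and 0.23. On chromosome 16 the 5 genes had medians of -0.42 and -0.86. Mcm4, a subunit of the replicative helicase, had 309, 323, 371 and 374 CPM in WT and 213, 197, 154 and 157 in KO, and its interaction was -0.61 ± 0.10 (log2 ± SE, edgeR adjusted p = 0.0246; lost in 8 of 8 leave-one-out fits, largest adjusted p 0.139). For this interaction Mcm4 had an adjusted p of 2.82e-10 in edgeR with the replicate block and of 0.000961 in DESeq2. Its neighbour Prkdc, the catalytic subunit of DNA-PK, had ratios of -0.39 and -0.86, and Chaf1b, a histone chaperone subunit, -0.57 and -0.86. Ccnd1, cyclin D1, lay in the higher stretch of chromosome 7 and was nonetheless lower in KO, with 732, 875, 321 and 374 CPM in WT and 651, 722, 188 and 208 in KO. Irradiation lowered it in both lines (log2 -1.27, adjusted p = 0.00025, and -1.83, adjusted p = 3.75e-05, edgeR). The 8 on chromosome 18 had medians of 0.31 and 0.16, under the 0.46 and 0.45 of the stretch that holds most of them. In both conditions 5 were above and 2 below 0, beside 82.7% and 9.41% of all genes of the chromosome. Over the list, irradiation raised 7 and lowered 7 of 30 genes in WT and raised 6 and lowered 10 in KO. The shares of all tested genes were 20.4% and 18.4% in WT and 21.1% and 18.6% in KO.

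Cytosolic ribosomal protein genes shifted less than their neighbours. The 11 on chromosome 7 after the border had ratios of 0.09 to 0.35 without irradiation and -0.17 to 0.13 after it, where the stretch had 0.39 in both. Rps3 had 605, 552, 660 and 568 CPM in WT and 672, 693, 694 and 648 in KO. Before the border, Rpl28 was lower in KO, with 420, 424, 482 and 525 CPM in WT and 289, 308, 280 and 305 in KO, and Rps9 had ratios of -0.25 and -0.61. Such genes have many near-identical pseudogenes, so their counts are uncertain. Irradiation lowered 6 of the 17 in KO, where 18.6% of all tested genes were lowered, and 0 were called in WT by edgeR or DESeq2 (1 at an unadjusted p under 0.05 with edgeR, 3 with DESeq2). With the replicate block edgeR called 14 lower in KO, and 5 higher and 4 lower in WT.

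Of the 10 imprinted genes of chromosome 7, 9 had ratios above 0 in both conditions, with medians of 0.40 and 0.51. Among all 751 genes of the chromosome, 601 were above 0 in both conditions. Imprinted genes are read mainly from 1 parental copy where the imprint acts. Whether that holds for these genes in these lines was not tested, since the counts do not tell the copies apart. Cd81, a tetraspanin of the distal cluster, had 178, 213, 221 and 263 CPM in WT and 297, 343, 381 and 437 in KO, and Ube3a, a ubiquitin ligase, had ratios of 0.39 and 0.46. The gene below 0 was Ampd3, AMP deaminase, at -0.24 and -0.34. Atp10a, a lipid flippase, had 72.4, 70.5, 56.4 and 54.0 CPM in WT and 68.8, 76.4, 107 and 110 in KO. Irradiation lowered it in WT (-0.43 ± 0.08, adjusted p = 0.00541) and raised it in KO (0.54 ± 0.08, 0.0017, edgeR).

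The 29 interferon-response genes had a median ratio of 0.33 without irradiation and 1.81 after it. Not all would have passed the 4 CPM threshold without IR KO: Gm4951 had means of 0 CPM in nonIR WT, 1.94 in IR WT, 0.262 in nonIR KO and 44.6 in IR KO. The added 0.5 CPM also lowers ratios of low genes. Rtp4, at 0.158 CPM in nonIR WT, had ratios of 1.74 and 2.08, where edgeR gave 3.28 and 2.12. The bearing of both on the rise of the median was not tested. Irradiation raised 19 and lowered 1 of the 29 in WT, raised 24 and lowered 1 in KO, and the interaction was called higher in KO for 9. Of all tested genes, 20.4% rose and 18.4% fell in WT, 21.1% and 18.6% in KO, and 1.37% had a higher interaction. On chromosome 16, where the neighbours were lower in KO, Parp14, Dtx3l and Parp9 lie side by side; Dtx3l encodes a ubiquitin ligase that pairs with the Parp9 protein, and Parp14 an ADP-ribosyltransferase. Dtx3l had 21.8 and 21.4 CPM in nonIR WT, 136 and 117 in IR WT, 28.8 and 21.4 in nonIR KO and 450 and 439 in IR KO. Dtx3l and Parp9 overlap on opposite strands and the strand setting of the counting is not given, so their reads cannot be told apart there. Socs1, the inhibitor of cytokine signalling, had 10.4, 13.1, 10.5 and 8.60 CPM in WT, 4.10 and 4.17 in nonIR KO and 20.7 and 19.6 in IR KO, so it was the lowest of the groups before irradiation and the highest after it.

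On chromosome 7 a run of Trim genes and Ifitm3 departed after irradiation in the direction of the chromosome but by more. Trim30a, a TRIM ligase, had 5.75 and 5.65 CPM in nonIR WT, 42.3 and 30.5 in IR WT, 10.4 and 6.64 in nonIR KO and 351 and 324 in IR KO. Ifitm3, which hinders virus entry, had 88.7, 81.7, 106 and 92.5 CPM in WT, 78.1 and 78.7 in nonIR KO and 410 and 399 in IR KO. Trim34a, Trim12a, Trim12c and Trim30d, neighbours of Trim30a, had IR ratios of 2.76 to 3.17. Spib, an ETS factor of the lymphoid lineage, went the other way, with 55.6 and 55.9 CPM in IR WT and 8.09 and 8.14 in IR KO. The receptor genes Ifnar1, Ifnar2 and Ifngr2 on chromosome 16 kept the sign of their chromosome in both conditions, Ifnar1 with 90.6, 90.1, 102 and 102 CPM in WT and 75.2, 73.8, 71.1 and 68.7 in KO. Leukocyte marker sums were 5.85 and 6.29 CPM in nonIR WT, 10.9 and 11.6 in nonIR KO, 21.6 and 23.8 in IR WT and 25.6 and 26.1 in IR KO, mostly Cd14 and Cd74. Fibroblast marker sums were 68.9 and 76.5 CPM in nonIR WT, 82.7 and 91.0 in nonIR KO, 157 and 170 in IR WT and 265 and 294 in IR KO, mostly Pdgfrb, itself a gene of the higher stretch of chromosome 18, and Dcn, while Lum reached 0.0663 CPM at most. Endothelial sums were 1.42 to 2.46 CPM without irradiation and 4.72 to 6.16 after it. Both leukocyte and fibroblast sums were thus higher after irradiation and in KO, and their part in these results was not tested. The leukocyte markers did not move together between the irradiated lines. Reads in IR WT and IR KO were 113 and 107 against 266 and 286 for Cd14, and 1 and 0 against 6 and 10 for Csf1r. Lower in IR KO were Cd74, with 153 and 268 against 100 and 128, and Ptprc, with 20 and 20 against 6 and 7.

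**Figure D5:**
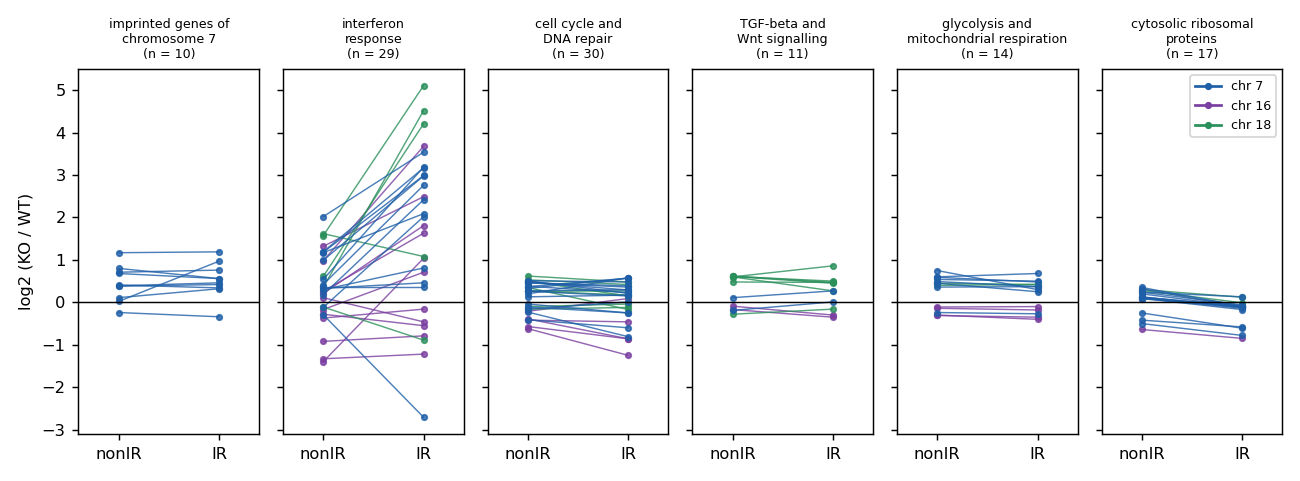
Log2 ratio of KO over WT of the members of 6 gene lists without irradiation and after it; each line is 1 gene, coloured by chromosome. Interferon-response genes move from a median of 0.33 to 1.81, while 3 of 17 ribosomal protein genes and 21 of 30 cell-cycle genes stay on the side of 0 of their chromosome in both conditions.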

How the data were processed

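The deposited file holds read counts per Ensembl gene, whole numbers made by the authors with no normalization. Per the submitters' processing notes, the tools were HISAT2, HISAT, HTSeq and DESeq2, with no versions, and the build was mm10. The annotation, strand setting and treatment of reads with several map positions were not given in the sources used here. Reads of overlapping antisense genes therefore cannot be told apart, and near-identical copies may share reads.

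Positions and gene types came from GENCODE M21 (mm10, 1-based), which placed 28880 of 29079 genes. Genes were ordered by start. Log2 ratios used CPM of column totals and a pseudocount of 0.5 CPM, with no test. Windows held 40 genes, and a last window under 20 genes was joined to the one before it. The partition minimised squared deviations of ratios clipped to within 1 of the chromosome median, with a penalty factor of 3, and was tested on simulated steps. Python 3.11.15, numpy 2.4.6 and pandas 2.3.3 were used.

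Counts were tested in R 4.3.3 with edgeR 4.0.16 (two-sided quasi-likelihood F test, TMM factors of 0.975 to 1.024, filterByExpr with a minimum count of 10, 14923 genes, 8 libraries in 1 fit with 4 residual degrees of freedom, Benjamini-Hochberg adjustment over all tested genes, threshold 0.05), and tested on simulated data. "Adjusted p" and "called" refer to this fit. DESeq2 1.42.0 was an alternative. All 1332 genes passed the filter on low counts. Totals of 10971004 to 19887180 counts set the precision. A library with 0 reads of a gene allows up to 3.

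Replicate numbers come from the labels. Libraries with the same number deviated together, with correlations of deviations from the group means of 0.564 to 0.611 over the 6 pairs of groups. The third principal component (13.1% of variance) parted the numbers, so the replicate-matched ratios pair libraries by number. The main edgeR fit did not use this pairing. With the replicate block, which does, the interaction was called for 262 of the 1332 genes in place of 25.

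Members, gene lists and the naming rule were chosen with earlier results of these data known. Named were the 5 highest and 5 lowest mean ratios of each chromosome among genes of at least 10 CPM with no overlap of WT and KO libraries in either condition, the genes at each border, members of the 7 lists (imprinted genes, interferon response, cell cycle and DNA repair, TGF-beta and Wnt signalling, adhesion and cytoskeleton, glycolysis and respiration, ribosomal proteins) and Piezo2. Epcam and Cdx2 were not analysed here.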

Additional observations from a re-analysis of the deposited data

Results flagged for a closer look

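For 11 members of the gene lists and for Selenow at the chromosome 7 border the irradiation effect differed between KO and WT by the interaction test (edgeR, Benjamini-Hochberg adjusted over 14923 genes, 2 libraries a group). On chromosome 7 the difference, KO minus WT in log2, was 1.00 for Selenow, 0.97 for Atp10a, 2.36 for Trim21, 2.71 for Trim30a, 2.38 for Trim30d and 2.17 for Ifitm3. On chromosome 16 it was 2.61 for Socs1, 1.14 for Parp14, 1.64 for Dtx3l, 1.41 for Parp9, 0.90 for Usp25 and -0.61 for Mcm4. Each of these genes was also called in edgeR with the replicate block and in DESeq2. The smallest adjusted p was that of Ifitm3 (0.000542; 0.00846 at most over the alternatives). The calls of Atp10a, Trim30a, Ifitm3, Socs1, Dtx3l and Parp9 held in all 8 leave-one-out fits. Trim30d and Usp25 lost theirs without replicate 2 of nonIR KO (adjusted p 0.053 and 0.0504), Trim21 and Parp14 in 5 of 8 fits, Selenow in 7 of 8 and Mcm4 in 8 of 8. Dcp2, a decapping enzyme gene of chromosome 18 outside the naming rule and picked after its values were seen, had a difference of 1.03 (adjusted p = 0.00429) that held in all 8.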

How the results depend on the processing

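None of the recomputed chromosome medians and steps changed sign. The first 35 genes of chromosome 18, near 0, had medians of 0.04 and -0.04 in the 2 replicate-matched pairs without irradiation and 0.02 and -0.03 after it. Medians without and after irradiation moved by more than the spread of the replicate-matched pairs (SD 0.013) in these cases: centring on the other chromosomes gave 0.40 and 0.40 for chromosome 7, -0.30 and -0.34 for chromosome 16 and 0.46 and 0.45 for chromosome 18; DESeq2 size factors gave 0.36, -0.34 and 0.41 without irradiation; TMM sizes gave 0.38, -0.36 and 0.42 after it. The mean over genes gave 0.40 for chromosome 7 after irradiation, -0.30 and -0.29 for chromosome 16 and 0.39 for chromosome 18 without it. Leaving out genes called for irradiation gave 0.35 for chromosome 7 after it and -0.34 and -0.39 for chromosome 16. A threshold of 1 CPM gave 0.40 and 0.39 for chromosome 18. Leaving out 1 library gave 0.36 to 0.39 and 0.34 to 0.40 for chromosome 7, -0.34 to -0.28 and -0.38 to -0.33 for chromosome 16, and 0.39 to 0.45 and 0.36 to 0.44 for chromosome 18.

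Steps of at least 80 genes fell to 0.47 and 0.46 on chromosome 7 and 0.20 and 0.20 on chromosome 18, by construction of longer first stretches. At least 20 genes gave 0.45 on chromosome 18 after irradiation. Single pairs gave 0.67 and 0.59 on chromosome 7, and 0.49 on chromosome 18 without irradiation.

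With the replicate block the counts of called genes rose to 1004 and 1043 for KO against WT, 890 and 919 for irradiation and 262 for the interaction, and medians of paired ratios stayed within the spread. Without 1 library the counts were 312 to 544, 403 to 626, 399 to 568, 420 to 586 and 13 to 17. Without the filter on low counts the interaction count was 56; the cause was not tested. Ratios spread more among genes of few counts: after the chromosome 7 border the interquartile range without irradiation was 0.46 in the lowest of 3 expression classes and 0.29 in the highest.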
